A study of Mus musculus with 30 samples.

Results

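The mRNAs of 9 genes that mark resident Kupffer cells, the macrophages that line the sinusoids of the liver, were followed in 30 mouse livers. They were *Clec4f*, *Timd4*, *Vsig4*, *Cd5l*, *Marco*, *Cd163*, *Folr2*, *Adgre1* and *Csf1r*, 9 of the 55450 genes in the count table, and they were chosen by name as known markers of these cells. Male *Cebpa* fl/fl mice, in which both alleles of the transcription factor gene *Cebpa* are flanked by loxP sites, were compared with knockout mice carrying a Cre transgene that deletes *Cebpa* in hepatocytes. Every mouse, floxed controls included, was on the C57BL/6N background and ate HFCFD, a diet rich in fat, cholesterol and fructose that induces metabolic dysfunction-associated steatohepatitis (MASH).

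The 3 experiments are named as in the labels. In HFCFD2W, 5 *Cebpa* fl/fl (Cre-) and 5 CebpaΔHep (Cre+) mice were fed for 2 weeks and received no tamoxifen, and the Cre was a constitutive one under the albumin promoter. In HFCFD8W+T10D, 5 *Cebpa* fl/fl and 5 CebpaΔHep,ERT2 mice were labelled with 8 weeks of HFCFD and 10 days of tamoxifen. In HFCFD12W+T10W, 5 *Cebpa* fl/fl and 5 CebpaΔHep,ERT2 mice were labelled with 12 weeks of HFCFD and 10 weeks of tamoxifen, the last 10 of 22 weeks on the diet. The Cre of both CebpaΔHep,ERT2 groups was a tamoxifen-inducible albumin-ERT2-Cre, the albumin promoter being one of hepatocytes, and the labels put the floxed mice of these experiments under the same tamoxifen treatment. The 3 experiments were described as separate batches, so that batch, time on the diet, tamoxifen and Cre line cannot be told apart between them. Below, *Cebpa* fl/fl mice are called floxed and Cre+ mice knockout.

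Kupffer cells seed the liver before birth, renew themselves there, and take up bacteria, dying cells, aged red cells and modified lipoproteins from portal blood. Their survival needs signalling through CSF1R, and their identity is kept up by signals from neighbouring hepatocytes, stellate cells and endothelium acting on transcription factors such as LXR alpha (*Nr1h3*), ID3 and SPIC. When resident cells are lost in steatohepatitis, monocyte-derived macrophages enter the niche; these take on part of the Kupffer cell programme early, while *Timd4* is known as a gene that they acquire late or not at all. The 9 genes therefore cover several roles. *Clec4f* encodes a lectin with the most restricted expression, and *Timd4* a phosphatidylserine receptor that peritoneal macrophages also express. *Vsig4*, *Marco*, *Cd163* and *Folr2* encode receptors for complement fragments, for bacteria and oxidized particles, for haemoglobin-haptoglobin and for folate. *Cd5l* encodes a secreted inhibitor of apoptosis, and *Adgre1* (F4/80) and *Csf1r* are shared with most other macrophages.

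Each liver gave 1 stranded poly(A) library with between 7996123 and 10257347 counts. All 9 genes were counted in every library, with 270 values between 8 and 9362 counts and 0 values at 0. *Cebpa* mRNA followed the labels: it was 149 to 193 CPM in floxed and 3.43 to 5.68 CPM in knockout livers of HFCFD2W, 121 to 156 against 11.1 to 25.1 CPM with 10 days of tamoxifen (HFCFD8W+T10D), and 82.5 to 135 against 18.7 to 23.8 CPM with 10 weeks (HFCFD12W+T10W), where CPM is the count of a gene relative to its library total, scaled with TMM factors (trimmed mean of M values). The scaling factors of the knockout libraries of HFCFD12W+T10W ran from 1.286 to 1.379 and those of their floxed controls from 0.961 to 1.03, without overlap. The median of all genes tested moved from 0.013 to 0.384 on the log2 scale in that experiment and from 0.011 to 0.195 in HFCFD8W+T10D when library totals were used without scaling, a shift of the same sign as the members that rose and opposite to those that fell.

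In the mm10 genome (GRCm38, GENCODE M21 annotation) the genes are protein coding and lie apart from each other, with *Clec4f* at chr6:83644542-83656187 on the minus strand and *Cd163* at chr6:124304656-124330527 on the plus strand as the only pair on 1 chromosome. *Timd4* lies at chr11:46810800-46844332, *Cd5l* at chr3:87357881-87371073, *Adgre1* at chr17:57358691-57483527 and *Csf1r* at chr18:61100598-61132149, all on the plus strand. *Marco* lies at chr1:120474538-120505024, *Folr2* at chr7:101839988-101857194 and *Vsig4* at chrX:96247203-96293438, on the minus strand. The span of *Folr2* also holds an antisense gene and a pseudogene on the opposite strand, and that of *Csf1r* a microRNA gene on its own strand and the gene *Hmgxb3* on the opposite strand. For the other 7 genes no second gene is annotated in the span.

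Per transcript length and by group mean, *Cd5l* was the most abundant of the 9 mRNAs and *Clec4f* the second in all 6 groups. In floxed livers of HFCFD2W, *Cd5l* was at 48.2 ± 10.4 TPM (TPM corrects for transcript length and depth; mean ± SD, n = 5) and *Clec4f* at 31.6 ± 6.98 TPM. The rest followed at 12 TPM for *Vsig4*, 7.9 for *Csf1r*, 7.5 for *Folr2*, 4.07 for *Adgre1*, 2.14 for *Timd4*, 2.01 for *Marco* and 1.44 for *Cd163*. The neighbours *Csf1r* and *Folr2*, *Timd4* and *Marco*, and *Marco* and *Cd163* differed there by less than the larger of their SDs. The lower places changed with the experiment. By its mean, *Marco* came next after *Clec4f* in floxed livers of HFCFD12W+T10W at 63.9 ± 40.1 TPM. It differed there from *Clec4f* (87.8 TPM) and from *Vsig4* (34.1 TPM) by less than its SD. In the knockout livers of that experiment, *Timd4* at 1.46 ± 1.18 TPM and *Cd163* at 0.966 ± 0.769 TPM were last.

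**Figure D1:**
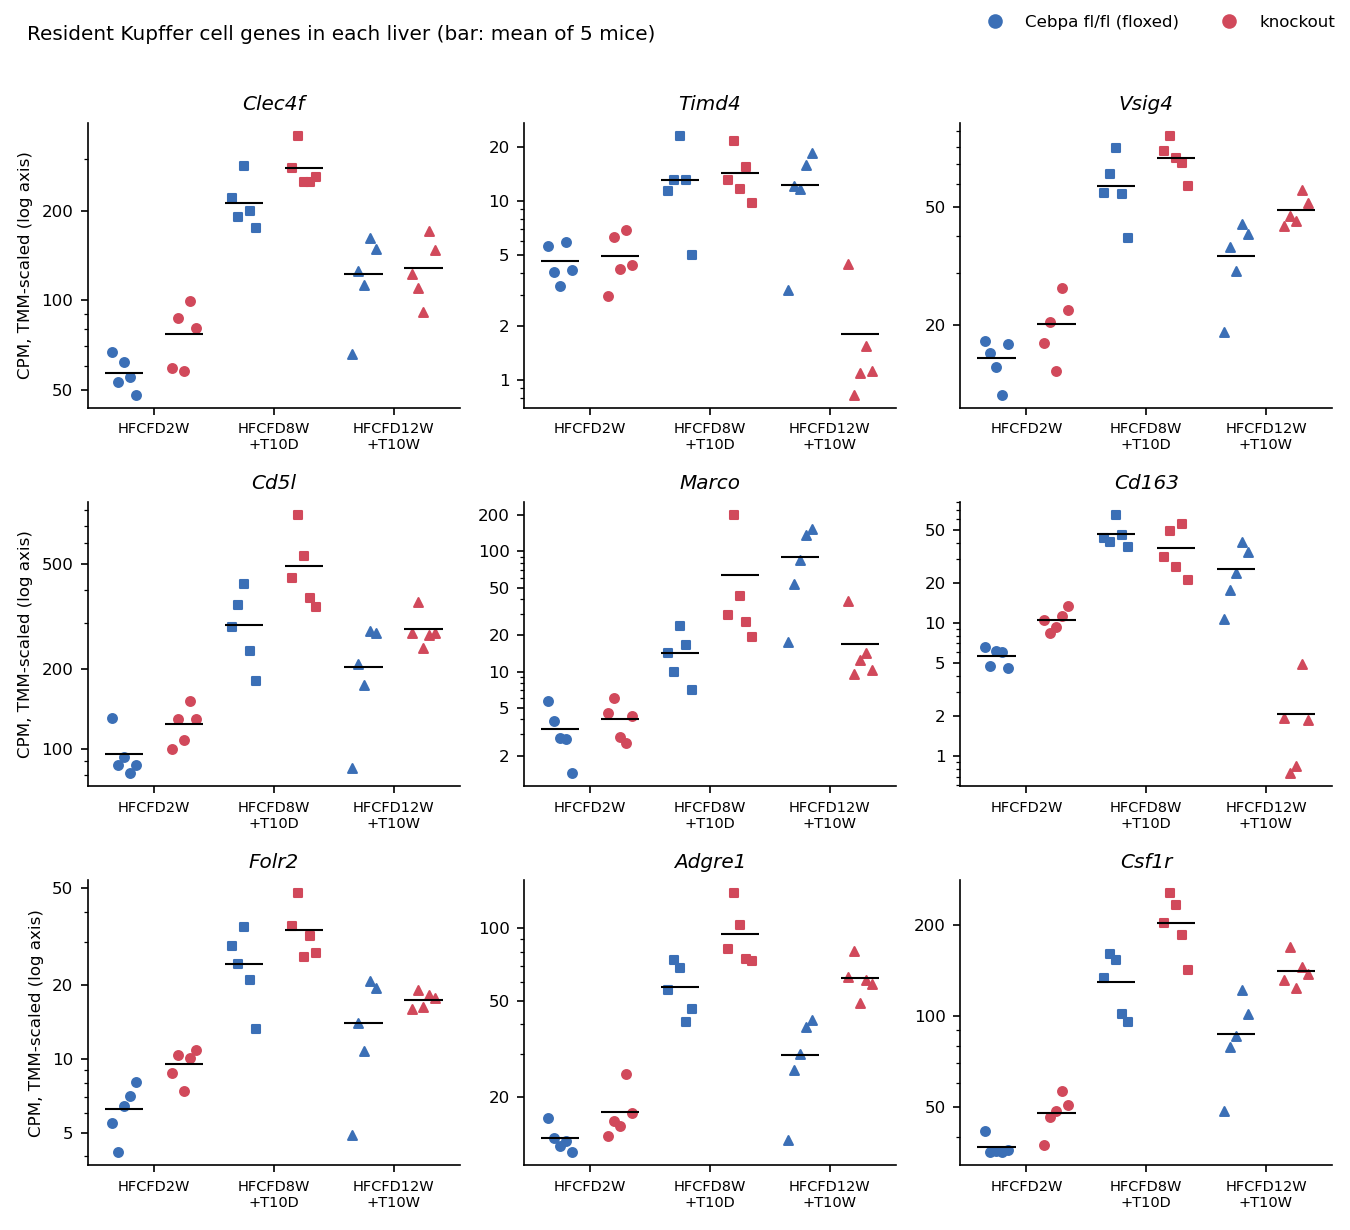
CPM of the 9 genes (log axes) in each of 30 livers, by experiment, with floxed mice in blue, knockout mice in red and a black bar at the mean of 5 mice. Among floxed livers, the HFCFD2W mean is the lowest for 9 of 9 genes, and *Timd4*, *Marco* and *Cd163* drop in the knockout livers of HFCFD12W+T10W while *Adgre1* and *Csf1r* rise.

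To see what the knockout was compared with, floxed livers were first set side by side across experiments. All 9 mRNAs were higher in floxed livers of HFCFD8W+T10D than of HFCFD2W, and all 9 were also higher in HFCFD12W+T10W than in HFCFD2W, by the quasi-likelihood F test of edgeR, with p-values adjusted by Benjamini-Hochberg across 12964 genes and called when under 0.05. Of all genes tested, 22.2% were called higher and 21.5% lower in the first of these comparisons, and 19.8% higher and 19.4% lower in the second. The rise was not particular to the 9 genes. Of 14 genes expressed by macrophages in general, 14 and 13 were called higher and 0 lower in the 2 comparisons. Their median log2 differences were 1.852 and 1.295, against 1.924 and 1.168 for the 9. Of 14 further Kupffer cell genes, 13 and 11 were called higher and 0 and 1 lower. In these whole-liver libraries, fewer cells of a type and less RNA per cell cannot be told apart.

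*Clec4f*, the lectin held to be confined to Kupffer cells, was at 67.1, 53.1, 61.9, 55.3 and 48.1 CPM in floxed livers of HFCFD2W, at 221, 191, 283, 199.6 and 175 CPM in HFCFD8W+T10D livers, and at 65.8, 126, 113, 162 and 149.5 CPM in HFCFD12W+T10W. The first and second of these groups did not overlap, and only 1 floxed mouse of HFCFD12W+T10W came down to the range of HFCFD2W. The log2 difference was 1.90 (SE 0.199, adjusted p = 2.59e-08 by edgeR) from HFCFD2W to HFCFD8W+T10D and 1.11 (SE 0.196, adjusted p = 7.19e-05) from HFCFD2W to HFCFD12W+T10W. The haemoglobin scavenger receptor gene *Cd163* had the widest step in the first comparison, from 5.61 ± 0.903 to 46.2 ± 10.9 CPM, 8.19-fold with an adjusted p of 8.97e-08. The scavenger receptor gene *Marco* had the widest step in the second, from 1.42 to 5.64 CPM in HFCFD2W to 17.5 to 155 CPM in HFCFD12W+T10W, 27.3-fold with an adjusted p of 5.05e-06. On the log2 scale, *Marco* rose by 2.13 in the first comparison (adjusted p = 0.0171 by edgeR) and *Cd163* by 2.17 in the second (adjusted p = 1.99e-05). *Timd4*, *Vsig4*, *Cd5l*, *Folr2*, *Adgre1* and *Csf1r* rose 2.85- to 4.23-fold in the first comparison and 2.13- to 2.69-fold in the second.

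Between the floxed livers of HFCFD8W+T10D and HFCFD12W+T10W the genes parted. *Marco* was 6.22-fold higher in HFCFD12W+T10W (log2 difference 2.64, SE 0.563, adjusted p = 0.00234 by edgeR), against 6.31% of all genes called higher. *Clec4f*, *Vsig4*, *Folr2*, *Adgre1* and *Csf1r* were lower there, with log2 differences of -0.79, -0.78, -0.80, -0.92 and -0.56 and adjusted p-values of 0.00639, 0.00431, 0.0339, 0.00604 and 0.0361, against 5.12% of all genes called lower. *Cd163* (-0.87, adjusted p = 0.0502), *Cd5l* (-0.53, 0.168) and *Timd4* (-0.08, 0.916) did not pass. The calls of *Folr2* and *Csf1r* held in 4 of 10 fits that left out 1 floxed mouse and were lost without floxed replicate 1, 2 or 3 of either experiment, where their adjusted p-values ran from 0.0538 to 0.123 and from 0.069 to 0.106. *Cd163* passed without floxed replicate 4 (adjusted p = 0.0169) or 5 (0.0372) of HFCFD12W+T10W, and with all mice by upper quartile scaling (0.0415), without the filter on low counts (0.0471) and by limma (0.0346).

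After 2 weeks of HFCFD, *Cd163*, *Folr2* and *Csf1r* mRNA were higher in livers with constitutive loss of hepatocyte *Cebpa*. In HFCFD2W, 3 of the 9 genes were called higher in CebpaΔHep than in floxed mice and 0 lower (0 lower at an unadjusted p under 0.05 too), against 8.6% higher and 8.09% lower among the 11068 genes tested, and the median log2 fold change of the 9 was 0.379 against 0.0073 for all genes. The scavenger receptor gene *Cd163* was at 6.53, 4.75, 6.18, 6.07 and 4.54 CPM in floxed and 10.4, 8.42, 9.33, 11.2 and 13.4 CPM in knockout livers. All 5 knockout livers lay above all 5 floxed livers, and the log2 fold change was 0.91 (SE 0.156, 95% interval 0.57 to 1.24, adjusted p = 0.00182 by edgeR). It passed in 10 of 10 fits that left out 1 mouse.

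*Folr2*, the folate receptor beta gene, was at 5.49, 4.16, 6.41, 7.04 and 8.09 CPM in floxed and 8.76, 10.4, 7.43, 10.1 and 10.9 CPM in knockout livers of HFCFD2W, with 4 of 5 knockout livers above every floxed one (log2 fold change 0.61, SE 0.171, adjusted p = 0.0286 by edgeR). *Csf1r*, the receptor for the macrophage growth factors CSF1 and IL-34, was at 41.7, 35.6, 35.8, 35.7 and 36.2 CPM in floxed and 37.6, 46.6, 48.8, 56.7 and 50.8 CPM in knockout livers, again with 4 of 5 above every floxed one (0.38, SE 0.1, adjusted p = 0.0215). The *Folr2* call was lost without floxed replicate 1 or 2 or knockout replicate 3, 5 or 6 (adjusted p = 0.0523 to 0.0684), and the *Csf1r* call without floxed replicate 2 (0.0525) or knockout replicate 6 (0.0514). With the 2-week livers fitted together with all others, none of the 3 passed, *Cd163* included (0.90, SE 0.365, adjusted p = 0.102).

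The other 6 genes had positive log2 fold changes in HFCFD2W that did not pass. They were 0.435 for *Clec4f* (adjusted p = 0.0651), 0.39 for *Vsig4* (0.126), 0.375 for *Cd5l* (0.0883), 0.375 for *Adgre1* (0.123), 0.32 for *Marco* (0.541) and 0.11 for *Timd4* (0.79) by edgeR. *Clec4f* passed when knockout replicate 2 (0.0326) or 4 (0.027) was left out, *Vsig4* without knockout replicate 4 (0.0393) and *Cd5l* without floxed replicate 1 (0.014), which had the highest *Cd5l* of its group. *Timd4*, at 3.38 to 5.93 CPM in floxed and 2.96 to 6.9 CPM in knockout livers, lay in the same range in both genotypes, with a 95% interval for its log2 fold change of -0.41 to 0.63.

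With 10 days of tamoxifen, *Marco*, *Adgre1* and *Csf1r* mRNA were higher in CebpaΔHep,ERT2 livers, and again 0 of the 9 genes were called lower (0 at an unadjusted p under 0.05 too). Among the 11990 genes tested in HFCFD8W+T10D, 10.3% were called higher and 6.85% lower. The median of the 9 log2 fold changes was 0.474, against 0.0111 over all genes. The bacterial scavenger receptor gene *Marco* was at 14.4, 9.83, 24, 16.8 and 6.98 CPM in floxed and 29.6, 203, 42.4, 25.7 and 19.5 CPM in knockout livers, so that 4 of 5 knockout livers lay above every floxed one and a single liver stood far above the rest (log2 fold change 2.18, SE 0.616, adjusted p = 0.0283 by edgeR). Without that knockout replicate 2 the value was 1.03 and still passed. The call was lost without floxed replicate 1, 2, 4 or 5 (0.0557 to 0.0651). With all mice kept, it was also lost in the robust edgeR fit (2.18, adjusted p = 0.0723) and in limma (1.59, 0.0572). It did not pass with the replicate number as a block either (1.59, 0.0507).

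*Adgre1*, the F4/80 gene, was at 55.2, 74, 68.2, 41 and 46.1 CPM in floxed and 82.1, 139.5, 103, 74.8 and 73.2 CPM in knockout livers of HFCFD8W+T10D (log2 fold change 0.75, SE 0.204, adjusted p = 0.0232 by edgeR). *Csf1r* was at 134, 161, 154, 102 and 95.7 CPM in floxed and 203, 255, 234, 185 and 142 CPM in knockout livers (0.68, SE 0.182, adjusted p = 0.0229). For both genes, 4 of 5 knockout livers exceeded every floxed liver. The *Adgre1* call was lost without floxed replicate 1, 4 or 5 or knockout replicate 2 or 3 (0.0512 to 0.0635), and the *Csf1r* call without floxed replicate 4 or 5 or knockout replicate 2 or 3 (0.0543 to 0.0666). Thus each of the calls in this experiment rested on which of the 10 mice were kept.

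The apoptosis inhibitor gene *Cd5l* did not pass in HFCFD8W+T10D (log2 fold change 0.76, adjusted p = 0.0572), and it passed without floxed replicate 3 (0.91, adjusted p = 0.0335), knockout replicate 4 (0.84, 0.0407) or knockout replicate 5 (0.85, 0.0365) by edgeR. *Clec4f* (0.40, adjusted p = 0.0853) passed without floxed replicate 3 (0.52, 0.0281). *Cd5l* also passed by DESeq2 (0.73, adjusted p = 0.0289), without the filter on low counts (0.73, 0.0424) and in the fit of all 30 libraries (0.74, 0.0243), so that its call depended on the method. With library totals in place of TMM scaling both passed (*Cd5l* 0.98, adjusted p = 0.0252; *Clec4f* 0.60, 0.0402). *Folr2* (0.47, 0.182), *Vsig4* (0.34, 0.176) and *Timd4* (0.15, 0.795) did not pass. *Cd163* was the only gene of the 9 with a negative value, -0.33 (95% interval -0.86 to 0.20, adjusted p = 0.4), with 3 of 5 knockout livers below every floxed liver.

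After 10 weeks of tamoxifen the genes moved in opposite directions. In HFCFD12W+T10W, *Timd4*, *Marco* and *Cd163* mRNA were lower in CebpaΔHep,ERT2 livers, *Vsig4*, *Adgre1* and *Csf1r* were higher, and *Clec4f*, *Cd5l* and *Folr2* did not pass. Of the 12463 genes tested, 27.4% were called higher and 23.8% lower, so that 3 of 9 in each direction is close to what genes at large gave; the median of the 9 log2 fold changes was 0.352 against 0.0129 for all genes. The sizes and the values by mouse are therefore given for each gene.

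*Timd4*, the gene for the phosphatidylserine receptor TIM-4 by which resident cells take up dying cells, was at 3.21, 12.1, 11.7, 16 and 18.7 CPM in floxed and 4.45, 0.831, 1.1, 1.55 and 1.13 CPM in knockout livers of HFCFD12W+T10W. These knockout values came from 51, 9, 13, 17 and 14 counts. Of the knockout livers, 4 of 5 lay below every floxed liver, and the groups overlapped through 1 low floxed and 1 high knockout liver (log2 fold change -2.72, SE 0.484, 95% interval -3.77 to -1.68, adjusted p = 0.000461 by edgeR). *Cd163* was at 10.7, 17.7, 23.7, 40.4 and 33.7 CPM in floxed and 1.92, 0.739, 0.845, 4.93 and 1.86 CPM in knockout livers, the latter from 22, 8, 10, 54 and 23 counts. The genotypes did not overlap, and the log2 fold change of -3.58 (SE 0.458, 95% interval -4.57 to -2.59, adjusted p = 3.72e-05) left 0.0836 of the floxed level.

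*Marco* was at 17.5, 53.6, 84.6, 136 and 155 CPM in floxed and 38.6, 9.61, 12.5, 14.3 and 10.4 CPM in knockout livers of HFCFD12W+T10W (log2 fold change -2.35, SE 0.533, 95% interval -3.50 to -1.19, adjusted p = 0.00261 by edgeR). Relative to its mean, *Marco* varied most of the 9 genes among these floxed livers (coefficient of variation 63.7%), and 4 of 5 knockout livers lay below all of them. Knockout replicate 1 was the highest of its group for both *Marco* and *Timd4*, and knockout replicate 4 the highest for *Cd163*. All 3 genes passed in 10 of 10 fits that left out 1 mouse, with log2 fold changes from -3.37 to -2.53 for *Timd4*, from -2.9 to -2.07 for *Marco* and from -4.17 to -3.37 for *Cd163*.

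*Adgre1* and *Csf1r*, which are shared with other macrophages, and *Vsig4* went the other way. *Adgre1* was at 13.2, 25.8, 30, 38.9 and 41.6 CPM in floxed and 62.6, 80.3, 48.9, 60.8 and 58.8 CPM in knockout livers of HFCFD12W+T10W (log2 fold change 1.10, SE 0.239, 95% interval 0.58 to 1.61, adjusted p = 0.00201 by edgeR). *Csf1r* was at 48.8, 79.3, 85.8, 122 and 102 CPM in floxed and 132, 169, 124, 145 and 138 CPM in knockout livers (0.735, SE 0.189, 95% interval 0.32 to 1.15, adjusted p = 0.00583). In both genes all 5 knockout livers exceeded all 5 floxed livers, and both passed in 10 of 10 fits that left out 1 mouse. *Vsig4*, the gene for the complement receptor CRIg, was at 19, 36.8, 30.4, 44 and 40.7 CPM in floxed and 43.2, 46.6, 45.1, 57.3 and 51.7 CPM in knockout livers (0.55, SE 0.178, adjusted p = 0.0203), a call lost without floxed replicate 3 (0.0577) or knockout replicate 4 (0.0528).

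*Clec4f* was at 65.8, 126, 113, 162 and 149.5 CPM in floxed and 123, 110.4, 91.6, 172 and 148 CPM in knockout livers of HFCFD12W+T10W. The ranges of the genotypes lay over each other, with a log2 fold change of 0.11 (SE 0.22, adjusted p = 0.716 by edgeR) whose 95% interval, -0.37 to 0.58, does not reach the size of change measured for *Timd4*, *Marco* or *Cd163*. *Cd5l* was 84.8 to 279 CPM in floxed and 242 to 359.8 CPM in knockout livers (0.52, 95% interval -0.03 to 1.07, adjusted p = 0.104). *Folr2* was 4.87 to 20.8 CPM in floxed and 16 to 19.1 CPM in knockout livers (0.35, 95% interval -0.24 to 0.94, adjusted p = 0.3), all 5 knockout values falling within the floxed range. With library totals in place of TMM scaling, a choice added after seeing the data, *Cd5l* (0.89, adjusted p = 0.00863) and *Folr2* (0.72, adjusted p = 0.0344) passed by edgeR, and *Timd4*, *Marco* and *Cd163* were still called lower.

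**Figure D2:**
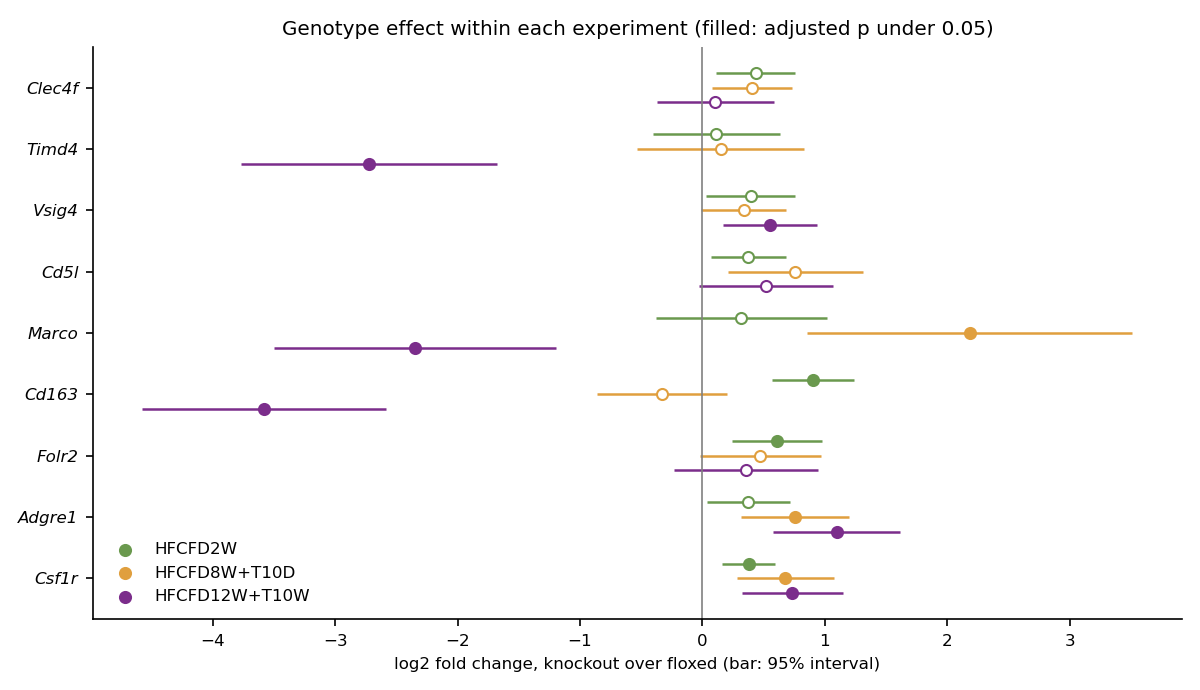
Log2 fold change of knockout over floxed livers for each gene (rows) in the 3 experiments (colours), with 95% intervals as bars and filled points for an adjusted p under 0.05. In HFCFD12W+T10W *Timd4*, *Marco* and *Cd163* lie at -2.72, -2.35 and -3.58, while 6 genes lie at or above 0.11.

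The promoters of the 3 genes that fell in HFCFD12W+T10W, and of *Clec4f*, which did not pass there, are shown so that their sequences can be compared. RefSeq promoter windows (GRCm38.p6, 300 bases from 250 before to 50 after the transcription start, written 5′ to 3′ on the strand of the gene) were available for 7 of the 9 genes, with 8 windows. Capitals mark matches, on either strand, to short motifs of factors active in macrophages or hepatocytes: GAGGAA for PU.1, TGCTGA for MAF factors, GTGGGAA for RBPJ, TTGCNNAA for C/EBP and AGGTCA for LXR. None of the matches overlapped.
Timd4, chr11:46810549-46810848, plus strand: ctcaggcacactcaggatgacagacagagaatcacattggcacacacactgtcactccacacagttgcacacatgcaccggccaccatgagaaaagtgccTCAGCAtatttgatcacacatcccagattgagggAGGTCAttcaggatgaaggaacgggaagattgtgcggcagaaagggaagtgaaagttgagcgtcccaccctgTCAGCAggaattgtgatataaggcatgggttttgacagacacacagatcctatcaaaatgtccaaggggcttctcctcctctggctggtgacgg
Marco, chr1:120504975-120505274, minus strand: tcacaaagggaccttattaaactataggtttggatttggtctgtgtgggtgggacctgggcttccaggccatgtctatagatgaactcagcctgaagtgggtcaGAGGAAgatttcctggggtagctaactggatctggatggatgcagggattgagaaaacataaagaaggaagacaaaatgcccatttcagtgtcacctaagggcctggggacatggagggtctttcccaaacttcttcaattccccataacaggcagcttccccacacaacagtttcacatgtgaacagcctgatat
Cd163, chr6:124304401-124304700, plus strand: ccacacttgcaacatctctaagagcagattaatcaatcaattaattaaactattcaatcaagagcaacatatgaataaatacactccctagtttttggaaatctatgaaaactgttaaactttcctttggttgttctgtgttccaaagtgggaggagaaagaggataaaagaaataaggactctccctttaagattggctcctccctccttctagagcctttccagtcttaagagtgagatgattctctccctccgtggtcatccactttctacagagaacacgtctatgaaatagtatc
Clec4f, chr6:83656067-83656366, minus strand: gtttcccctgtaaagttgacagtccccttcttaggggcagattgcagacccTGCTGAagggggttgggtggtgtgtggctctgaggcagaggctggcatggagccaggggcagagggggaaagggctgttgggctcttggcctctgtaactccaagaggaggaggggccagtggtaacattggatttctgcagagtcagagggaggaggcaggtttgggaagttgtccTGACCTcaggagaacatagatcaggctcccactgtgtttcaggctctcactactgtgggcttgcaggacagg
*Timd4* held 2 MAF matches and 1 LXR match, *Marco* 1 PU.1 match, *Cd163* no match, and *Clec4f* 1 MAF and 1 LXR match. Of the windows not shown, *Cd5l* held 1 PU.1 and 2 MAF matches, *Vsig4* 2 PU.1 matches and 1 MAF match, and each *Folr2* window 1 MAF match. Of 32851 RefSeq promoter windows of this length, 28.3% held the PU.1 letters, 19.5% the MAF letters, 16.3% the LXR letters, 10.8% the C/EBP letters and 6.38% the RBPJ letters. None of these motifs was in all 3 windows of the genes that fell, and the C/EBP and RBPJ letters were in none of the 8 windows.

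Whether the genotype effect itself differed between experiments was tested as an interaction in 1 fit of all 30 libraries (12964 genes tested). From HFCFD8W+T10D to HFCFD12W+T10W, 3 of the 9 genes had a lower genotype effect and 0 a higher one, against 5.49% lower and 4.97% higher among all genes. The difference was -2.90 for *Timd4* (SE 0.552, adjusted p = 0.00149), -4.55 for *Marco* (SE 0.781, adjusted p = 0.00067) and -3.28 for *Cd163* (SE 0.474, adjusted p = 0.000147) by edgeR, and each passed in 20 of 20 fits that left out 1 mouse. The *Marco* difference ran from -5.09 to -3.4 in these fits, the smallest without knockout replicate 2 of HFCFD8W+T10D, the liver at 203 CPM. From HFCFD2W to HFCFD12W+T10W the same 3 genes passed, at -2.875 (adjusted p = 0.000702), -2.715 (0.0373) and -4.52 (7.58e-07), against 17.3% lower and 13.4% higher among all genes. These 2 tests share the mice of HFCFD12W+T10W. *Marco* passed the second test in 8 of 20 fits that left out 1 mouse, with adjusted p-values of 0.0132 to 0.0796. It did not pass in the robust edgeR fit (-2.71, adjusted p = 0.0597) or with library totals (-2.33, adjusted p = 0.066), whereas with totals *Adgre1* (1.07, 0.0182) and *Csf1r* (0.71, 0.0323) did.

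The higher values of *Adgre1* and *Csf1r* in HFCFD12W+T10W were not shown, with TMM scaling, to differ from those of the other experiments. The interaction was 0.32 (adjusted p = 0.567) and 0.03 (0.953) against HFCFD8W+T10D, and 0.68 (0.119) and 0.32 (0.363) against HFCFD2W by edgeR. Between HFCFD2W and HFCFD8W+T10D, 0 of 9 genes differed in genotype effect, and 0 by DESeq2 or limma, against 4.45% of genes called higher and 6.79% called lower; *Cd163* came nearest at -1.25 (SE 0.464, unadjusted p = 0.0117, adjusted p = 0.0788) and was the only one with an unadjusted p under 0.05. It passed without knockout replicate 4 of HFCFD8W+T10D (-1.44, 0.0378).

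**Figure D3:**
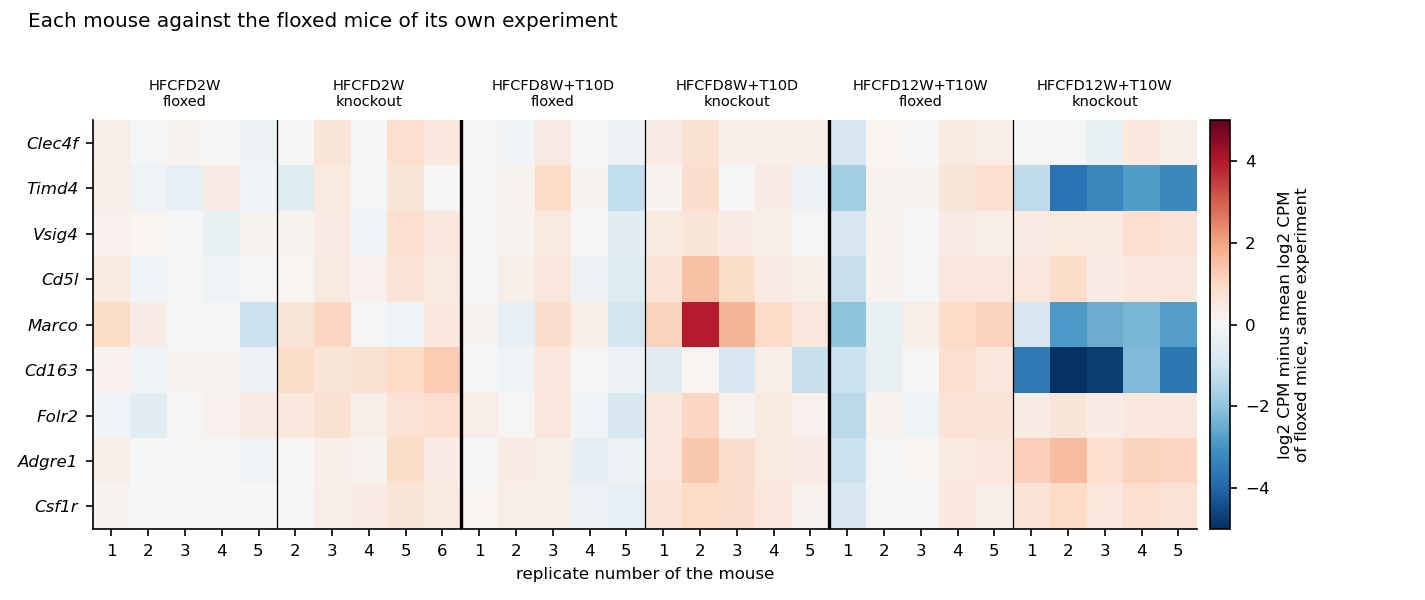
Log2 CPM, without a prior count, of each gene (rows) in each of 30 livers (columns), minus the mean of the floxed livers of the same experiment, on a colour scale from -5 to 5. The deepest blue is in *Timd4*, *Marco* and *Cd163* of the knockout livers of HFCFD12W+T10W, and knockout replicate 2 of HFCFD8W+T10D is red in *Marco*.

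Within a group the genes tended to move together from mouse to mouse. Floxed replicate 1 of HFCFD12W+T10W had the lowest value of its group for 9 of 9 genes, with a median distance of -1.18 on the log2 scale from the group median. Floxed replicate 5 of HFCFD8W+T10D was lowest for 8 genes and knockout replicate 2 of that experiment highest for 8 genes. In HFCFD2W, floxed replicate 1 was highest for 7 genes and knockout replicate 5 for 6 genes. Over the 30 livers, the Pearson correlation of log2 CPM was above 0 for all 36 pairs of genes (0.281 to 0.987), and it was 0.442 to 0.927 with a median of 0.694 once group means were subtracted. These are descriptions over livers that share libraries and scaling. Over all livers *Adgre1* and *Csf1r* were the closest pair (0.987), followed by *Cd5l* with both (0.973). Within groups the same 3 pairs lay at 0.922, 0.925 and 0.927, with *Cd5l* and *Csf1r* the closest. *Timd4* and *Cd163* were closest to each other over all livers (0.895), but within groups (0.593) *Timd4* was closer to *Marco* (0.752) and *Cd163* to *Clec4f* (0.731).

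Because the genes move together, each was also read as a percent of *Clec4f* in the same liver, which compares groups for 1 gene and not the levels of different genes. In HFCFD12W+T10W, *Cd163* was at 19.8 ± 4.49% of *Clec4f* (CPM, mean ± SD, n = 5) in floxed and 1.45 ± 0.858% in knockout livers, and the ranges of 14.1 to 24.9% and 0.669 to 2.87% did not overlap. *Timd4* was at 9.45% and 1.44% on average, with ranges of 4.87 to 12.5% and 0.753 to 3.6% that did not overlap either. *Marco* was at 66.4 ± 31.3% and 13.8 ± 10.1%, with ranges of 26.5 to 103% and 7.02 to 31.3% that overlapped. Set against *Clec4f*, floxed replicate 1, which was low in CPM, was thus apart from the knockout livers for *Timd4*. In HFCFD8W+T10D, *Cd163* was at 21.5 ± 1.4% of *Clec4f* in floxed and 13 ± 5.43% in knockout livers, and the ranges overlapped. *Vsig4* was at 26.4 to 27.9% of *Clec4f* on average in the 5 other groups and at 39 ± 6.69% in knockout livers of HFCFD12W+T10W. *Adgre1* was at 20 to 27.8% of *Clec4f* in floxed and 35.4 to 72.7% in knockout livers of that experiment, and *Csf1r* at 63.1 to 76.2% and 84.7 to 153%, also without overlap.

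**Figure D4:**
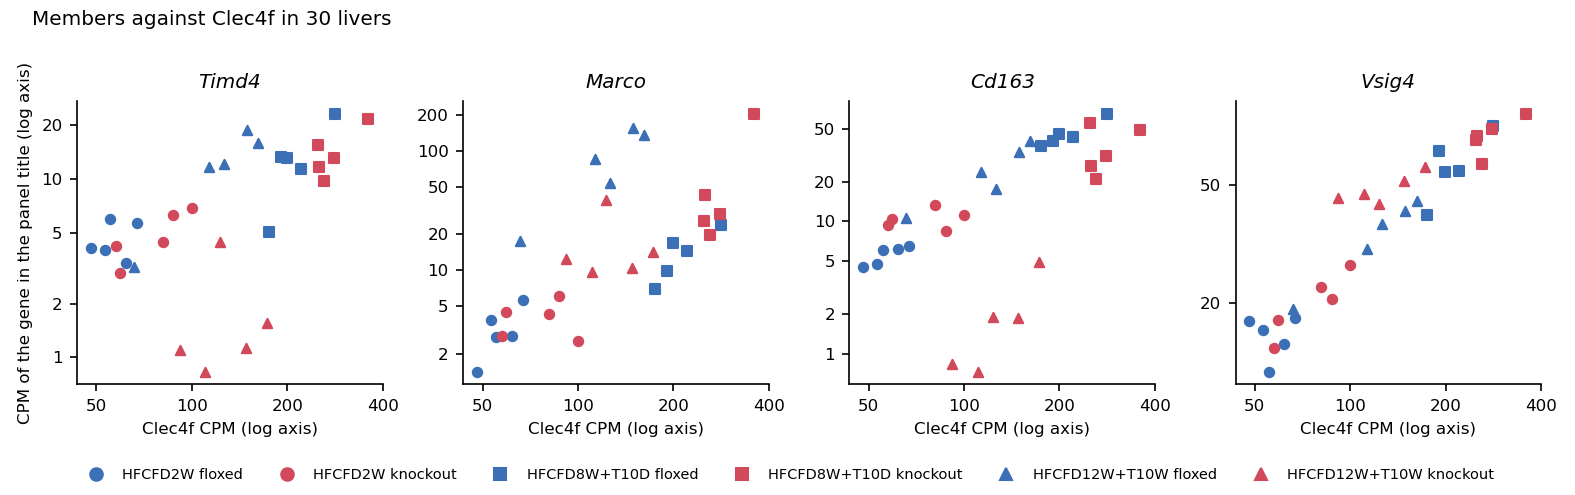
CPM of *Timd4*, *Marco*, *Cd163* and *Vsig4* against CPM of *Clec4f* in 30 livers (log axes), with colours for genotype and symbols for experiment. Knockout livers of HFCFD12W+T10W (red triangles) lie at 0.669 to 2.87% of *Clec4f* in *Cd163* and at 0.753 to 3.6% in *Timd4*, the latter overlapping with floxed livers of HFCFD8W+T10D, and at 33.4 to 49.2% in *Vsig4*.

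Other macrophage mRNAs were read beside these changes. The summed CPM of 14 genes expressed by macrophages in general (C1q subunits, *Mpeg1*, *Cd68*, *Lyz2* and others) had medians of 265 in floxed and 309.7 in knockout livers of HFCFD2W, 862 and 1543 with 10 days of tamoxifen, and 585 and 1314 with 10 weeks. The ranges in the last experiment, 350.4 to 749 and 1271 to 1625, did not overlap. Of the 14 genes, 7, 13 and 13 were called higher in knockout livers of the 3 experiments and 0 lower, against 8.6%, 10.3% and 27.4% of all genes called higher. *Mpeg1*, the perforin-2 gene and the one of the 14 with the highest CPM, had a log2 fold change of -0.439 in HFCFD2W that did not pass (SE 0.156, adjusted p = 0.0707 by edgeR), 0.85 in HFCFD8W+T10D (adjusted p = 0.0253) and 1.27 in HFCFD12W+T10W (SE 0.12, adjusted p = 3.73e-06). Of 14 genes of recruited and lipid-associated macrophages, 1 of 5 tested, 12 of 13 and 13 of 13 were called higher, with medians of 0.38, 1.786 and 2.525. The single call in HFCFD2W was *Spp1*, the osteopontin gene, which cholangiocytes and hepatocytes also express and which is counted in the cholangiocyte list too; *Cd9*, *Lgals3*, *Fabp5* and *Cd63* did not pass there. In HFCFD12W+T10W, *Spp1* was at 4.16 (SE 0.144, adjusted p = 4.43e-09 by edgeR). It was also called higher in HFCFD2W (3.60) and HFCFD8W+T10D (2.59), so each of these counts includes it. The paper reports that *Spp1* was induced mostly in hepatocytes of knockout mice early on this diet. Calls of this gene therefore cannot be read as macrophage or cholangiocyte signal. Which cells gave the mRNA in these livers was not tested.

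None of the 9 genes is among these 14, and each was set as a ratio, in percent, to the summed pan-macrophage CPM of the same liver. On this scale *Clec4f* of HFCFD12W+T10W was at 20.5 ± 1.61% in floxed and 9.5 ± 2.97% in knockout livers (mean ± SD, n = 5), and the ranges of 18.8 to 22.6% and 6.55 to 13.5% did not overlap, while its CPM did overlap. *Cd5l* was at 33.2 ± 6.06% and 20.5 ± 1.87%, *Csf1r* at 14.6 ± 0.983% and 10.3 ± 0.921%, and *Vsig4* at 5.74 ± 0.55% and 3.57 ± 0.653%, without overlap, while *Folr2*, at 2.24 ± 0.599% and 1.27 ± 0.118%, overlapped. *Adgre1* was at 4.88 ± 0.726% and 4.49 ± 0.582%, ranges that overlapped. *Marco*, *Cd163* and *Timd4* had the widest gaps, 13.7 ± 6.5% against 1.27 ± 0.954%, 4.06 ± 0.984% against 0.156 ± 0.137%, and 1.96 ± 0.617% against 0.135 ± 0.116%. In HFCFD2W, *Clec4f* was at 21.8 ± 2.86% and 24.6 ± 2.36%, and in HFCFD8W+T10D at 26.5 ± 3.74% and 19.2 ± 4.15%, with overlap in both. No test was made of these ratios. In HFCFD12W+T10W the denominator itself was higher in the knockout livers without overlap, so that any gene that did not rise with it has a lower ratio. With the 3 C1q genes alone as the denominator, *Clec4f* was at 71.2 ± 7.29% in floxed and 70.1 ± 9.56% in knockout livers of HFCFD2W, so that the order of the means turned, and at 64.9 ± 8.57% and 33.6 ± 9.32% in HFCFD12W+T10W, again without overlap.

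**Figure D5:**
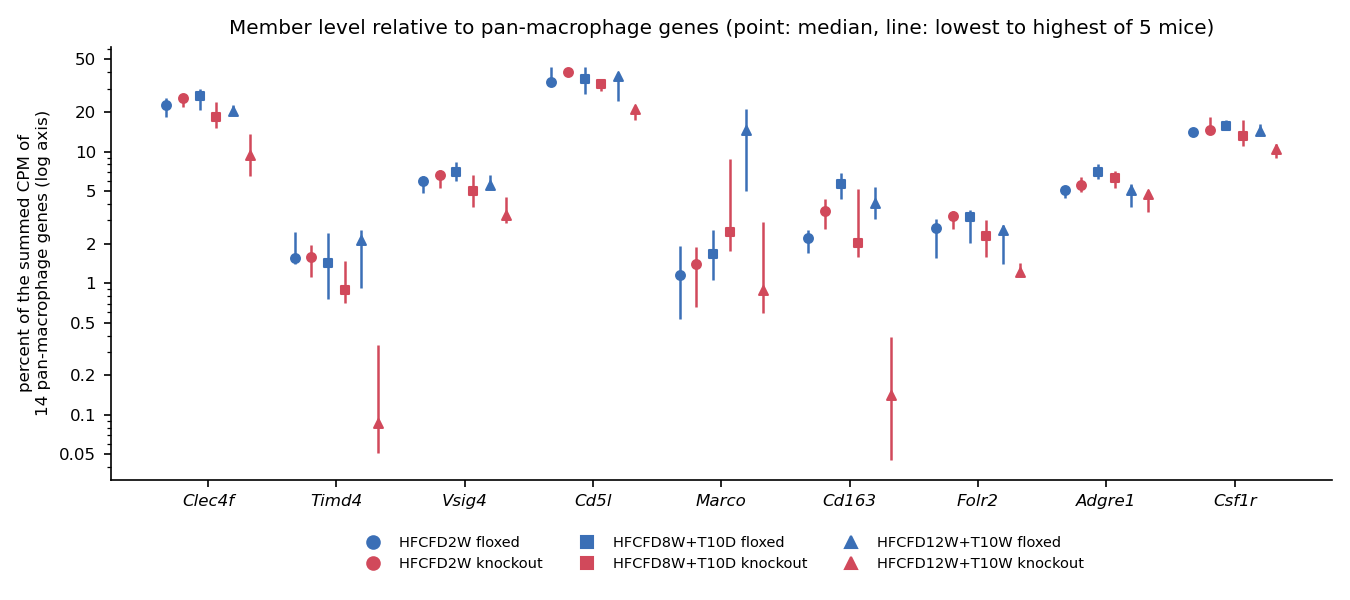
Ratio of each gene, in percent, to the summed CPM of 14 pan-macrophage genes that include none of the 9 (log axis), by group, with the median as a point and the lowest to highest of 5 mice as a line. In HFCFD12W+T10W the median of *Clec4f* is at 20.4% in floxed and 9.39% in knockout livers, while the summed CPM below it has medians of 585 and 1314.

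Other genes of the Kupffer cell programme were called in both directions, against 10.3% higher and 6.85% lower of all genes in HFCFD8W+T10D and 27.4% higher and 23.8% lower in HFCFD12W+T10W. Of 14 further Kupffer cell genes, 0 of 11 tested passed in HFCFD2W (median 0.318 against 0.0073 for all genes), 4 were called higher and 1 lower in HFCFD8W+T10D, and 5 higher and 2 lower in HFCFD12W+T10W, the last close to what genes at large gave. In that experiment *Cd207*, the langerin gene, rose by 2.48 (SE 0.314, adjusted p = 3.48e-05 by edgeR), and *Fcgr4*, *Il18bp*, *Sdc3* and *Cd38* were higher by 1.08, 0.87, 0.66 and 0.60. The complement gene *C6* (-1.61, adjusted p = 0.00709) and the prostaglandin dehydrogenase gene *Hpgd* (-0.68, adjusted p = 5e-05) were lower; both are also made by other liver cells. *Slc40a1*, the iron exporter gene and the most abundant of the list, had values of 0.238, 0.345 and -0.156 that did not pass, and *Clec1b* had 0.29 (adjusted p = 0.276) in HFCFD12W+T10W.

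Of 12 transcription factor genes of Kupffer cell identity, 3 of 10 tested were higher and 2 lower in HFCFD2W, 3 of 12 higher and 0 lower in HFCFD8W+T10D, and 6 of 12 higher and 2 lower in HFCFD12W+T10W. Of all genes, 8.6%, 10.3% and 27.4% were called higher and 8.09%, 6.85% and 23.8% lower in these experiments. *Nr1h3*, the LXR alpha gene, which hepatocytes also express, was lower in HFCFD2W (-0.39, SE 0.087, adjusted p = 0.00917) and HFCFD12W+T10W (-0.33, SE 0.068, adjusted p = 0.00156 by edgeR) and did not pass in HFCFD8W+T10D (-0.10, 0.573). In HFCFD12W+T10W it was at 71.9 to 80 CPM in floxed and 54.1 to 65.9 CPM in knockout livers, without overlap. *Id3* was lower in HFCFD2W (-1.10, adjusted p = 0.0134) and did not pass at 0.20 (0.215) in HFCFD12W+T10W, and *Spic*, at 1.28 to 3.33 CPM there, had 0.04 (0.912). *Zeb2* (1.07, adjusted p = 9.58e-06), *Irf8* (1.21), *Spi1* (1.18), *Irf7* (0.51), *Rbpj* (0.45) and *Maf* (0.37) were higher in HFCFD12W+T10W.

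Of 9 genes for ligands made by the cells around Kupffer cells, 0 passed in HFCFD2W, and 2 were higher and 0 lower in HFCFD8W+T10D. In HFCFD12W+T10W, 3 were higher and 1 lower. Of all genes, 8.6%, 10.3% and 27.4% were called higher and 8.09%, 6.85% and 23.8% lower in the 3 experiments. The counts in HFCFD12W+T10W do not set the ligands apart. *Csf1*, a ligand of CSF1R, was at 10.3 to 12.6 CPM in floxed and 13.1 to 20.8 CPM in knockout livers of HFCFD12W+T10W, without overlap (log2 fold change 0.72, SE 0.133, adjusted p = 0.000607 by edgeR), and rose by 0.88 in HFCFD8W+T10D (adjusted p = 0.0257). *Il34*, the other ligand of CSF1R, was at 0.297 to 4.04 CPM over all livers and did not pass in any experiment (0.61, 0.06 and 0.46; adjusted p = 0.352, 0.9 and 0.136). The Notch ligand gene *Jag1* was higher by 1.01 (adjusted p = 0.00026) and *Tgfb1* by 0.67 in HFCFD12W+T10W, and *Bmp10* was lower there (-0.67, adjusted p = 0.0396). *Gdf2*, the most abundant of the list, did not pass in any of the 3 experiments (0.10, 0.00 and 0.26).

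Markers of other cell types were read in the same livers, and their part in the results above was not tested. In HFCFD12W+T10W, 7 of 8 stellate cell genes (*Dcn* 0.89, *Pdgfrb* 1.42), 7 of 7 cholangiocyte genes, 3 of 3 neutrophil genes tested (*S100a8* 3.58, *S100a9* 2.71), 3 of 4 dendritic cell genes tested (*Clec9a* 2.12; *Zbtb46* 0.30 did not pass) and 2 of 2 lymphocyte genes tested (*Cd79b* 1.48) were called higher by edgeR, while 4 of 8 hepatocyte genes (*Alb* -1.10, *Hnf4a* -0.955) and 2 of 8 sinusoidal endothelial genes (*Stab2* -0.54) were lower. Of all genes there, 27.4% were called higher and 23.8% lower, and the endothelial count is close to that background. The filter on low counts keeps a gene with enough counts in either genotype alone. In floxed and knockout livers there, *S100a8* was at 0.227 to 1.72 and 4.1 to 25.8 CPM. *Clec9a* was at 0.101 to 0.804 and 1.18 to 2.49 CPM, and *Cd79b* at 0.345 to 0.832 and 1.29 to 2.01 CPM. Genes such as these were tested because of the knockout livers. The neutrophil, dendritic and lymphocyte counts therefore cannot be set against that background. In HFCFD8W+T10D the counts were 0 of 8 stellate, 4 of 6 cholangiocyte, 1 of 3 neutrophil, 0 of 2 dendritic and 0 of 2 lymphocyte genes higher, with 4 of 8 hepatocyte genes and 1 of 8 endothelial genes lower. In HFCFD2W, 2 of 3 cholangiocyte genes tested were higher and 0 stellate, hepatocyte or endothelial genes passed. The cholangiocyte counts of all 3 experiments include *Spp1*, so they do not stand for cholangiocytes alone. The shares of all genes called higher and lower were 10.3% and 6.85% in HFCFD8W+T10D, and 8.6% and 8.09% in HFCFD2W.

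Cells other than Kupffer cells that express a gene of the 9 were read as well. Eosinophils also express *Adgre1*, and the summed CPM of 5 eosinophil genes was 0 to 1.97 in all livers, with *Epx* at 0 in every mouse of 5 of the 6 groups and *Siglecf* as the most abundant. Peritoneal macrophages also express *Timd4*; of 5 of their genes 2 had enough counts, and the sum, mostly *Prg4*, which hepatocytes also express, was 96.3 to 141 CPM in floxed and 60.6 to 74.4 CPM in knockout livers of HFCFD12W+T10W. *Prg4* was lower there (-0.91, adjusted p = 2.58e-05 by edgeR), and *Serpinb2* and *Alox15* were at 0 in every floxed mouse of that experiment. Of 8 genes that all cells use, 2 were higher in HFCFD12W+T10W, close to the 27.4% of all genes (*Actb* 0.40, adjusted p = 0.00499) and *Eef1a1*, the most abundant, had -0.20 (adjusted p = 0.109).

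Over the 30 livers, the genes whose log2 CPM was most like that of *Clec4f*, among 12096 genes with a mean of at least 1 CPM, were *Fpr1* (Pearson r = 0.965, and 0.746 once group means were subtracted), *Cfp* (0.962, 0.763), *Siglec1* (0.951, 0.78), *Trpm2* (0.937, 0.692) and *Clec1b* (0.933, 0.627). Those most like the mean of the 9 genes were *Cfp* (0.976, 0.887), *Fpr1* (0.97, 0.851), *Siglec1* (0.939, 0.8), *Mrc1* (0.925, 0.748) and *Clec1b* (0.925, 0.648). *Siglec1* and *Mrc1* encode the macrophage receptors CD169 and CD206, and *Cfp* encodes the complement factor properdin. These values describe likeness over livers of 6 groups and carry no test.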

How the data were processed

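Liver mRNA of 30 male mice was sequenced, 1 stranded poly(A) library per mouse. Per the labels, the authors trimmed reads with Trimmomatic 0.36, aligned them to mm10 with STAR 2.5.1 and used Picard 1.84 and RSEM 1.2.22; they deposited expected counts, TPM and FPKM for 55450 genes, and a signal table of TMM-scaled counts for 15010 genes. RSEM shares reads that fit several genes, so 3.25% of the expected counts were not whole; they were rounded. FPKM from the authors served only as a second length scale.

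In edgeR 4.0.16 (R 4.3.3), filterByExpr took out genes of low count and TMM factors scaled the libraries. Knockout and floxed livers of an experiment were then set against each other by the quasi-likelihood F test; p-values were adjusted by Benjamini-Hochberg across every gene fitted, with calls made under 0.05. All 9 members passed the filter in every fit. Differences between experiments came from 1 fit of 6 groups. CPM are counts relative to the scaled total, with a prior count of 2 in log2 CPM. Ratios and correlations were described without tests. The steps were run on simulated counts with few changed genes and no difference in scaling between genotypes. That run therefore cannot speak to the scaling in HFCFD12W+T10W. Intervals and p-values measure the spread between mice. Library totals ran from 7996123 to 10257347 counts; at the 8 counts of the lowest value, counting error is wide.

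The genes named were the 9 members, *Cebpa*, *Csf1*, *Il34*, *Nr1h3*, *Id3* and *Spic*, the most abundant gene and the gene with the lowest p in HFCFD12W+T10W of each other list, and the 5 genes most like *Clec4f* and the 5 most like the members' mean. Other genes of the lists were named after their values were seen. The members and lists were chosen with earlier results of these data known. DESeq2 1.42.0, limma 3.58.1 on log2 of the authors' signal values plus a pseudocount of 1, other scalings, no filter, robust fits, a fit of all libraries, the replicate block, stricter thresholds and each mouse left out were alternatives; library totals without scaling were added after seeing the data. Promoter windows and gene positions came from RefSeq (GRCm38.p6) and GENCODE M21. Python 3.11.15 was used for summaries. The result of 1 gene of the lists is not reported here.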

Additional observations from a re-analysis of the deposited data

Results flagged for a closer look

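Of 54 groups of 5 mice, 1 for each gene and group, 8 held a mouse whose gap to the next was large for the range of its group (Dixon's test at the 95% level, which flags about 1 in 20 groups by chance). Knockout replicate 2 of HFCFD8W+T10D was high for *Marco*, at 203 CPM with the others at 19.5 to 42.4, and for *Clec4f*, at 359 CPM with the others at 250.3 to 280.5. Knockout replicate 1 of HFCFD12W+T10W was high for *Timd4*, at 4.45 CPM with the others at 0.831 to 1.55, and for *Marco*, at 38.6 CPM with the others at 9.61 to 14.3. In the same group, knockout replicate 4 was high for *Cd163*, at 4.93 CPM with the others at 0.739 to 1.92, and knockout replicate 2 for *Cd5l*, at 359.8 CPM with the others at 242 to 275. Floxed replicate 1 of HFCFD2W was high for *Cd5l*, at 131 CPM with the others at 80.9 to 92.9, and for *Csf1r*, at 41.7 CPM with the others at 35.6 to 36.2.

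The genotype effect of 3 genes differed between experiments by the interaction test of edgeR. From HFCFD8W+T10D to HFCFD12W+T10W the log2 differences were -2.899 for *Timd4*, -4.554 for *Marco* and -3.277 for *Cd163*; that of *Marco* was -3.4 without the liver at 203 CPM. From HFCFD2W to HFCFD12W+T10W they were -2.875, -2.715 and -4.524 in the same order, and that of *Marco* did not pass in the robust edgeR fit (-2.71, adjusted p = 0.0597). Time on the diet, length of tamoxifen, Cre line (in the second set) and batch changed together between these experiments and cannot be told apart.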

How the results depend on the processing

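The genotype calls of *Timd4*, *Marco*, *Cd163*, *Adgre1* and *Csf1r* in HFCFD12W+T10W kept their direction and passed in every alternative run at the same threshold, whereas the calls in HFCFD8W+T10D and most in HFCFD2W depended on single mice. Values counted as unchanged were gene results on the same side of the threshold and counts of members that changed little. They also included equal ranks by TPM and FPKM, and macrophage ratios that shifted by less than the SD of the floxed livers. Apart from leaving out mice, 823 values were unchanged, 14 gained and 12 lost a call, 7 reversed and 20 moved. With 1 mouse left out, the numbers were 1208, 12, 46, 37 and 17. The cause was not tested.

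Members called higher were 3 in HFCFD2W, and 0 with a fold over 2, 1 with an adjusted p under 0.01 and 0 in the fit of all 30 libraries. In HFCFD8W+T10D they were 3, and 1 with a fold over 2, 0 with an adjusted p under 0.01 and 5 with library totals, with which 2023 of 11990 genes were called higher. In HFCFD12W+T10W the higher members were 3, and 1 with a fold over 2 and 5 with library totals, with which 7049 of 12463 genes were called higher, so that the gain sets the members apart from no other genes. Members lower in floxed livers of HFCFD12W+T10W than of HFCFD8W+T10D were 5, and 0 with a fold over 2, 3 with an adjusted p under 0.01 and 3 with library totals. Members with a higher genotype effect in HFCFD12W+T10W than in HFCFD2W were 0, and 2 with library totals, with which 4127 of 12964 genes were called higher. With 1 mouse left out, these counts ran from 1 to 5, 0 to 5, 2 to 3, 3 to 6 and 0 to 1, and the members with a lower effect in HFCFD8W+T10D than in HFCFD2W from 0 to 1.

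None of the values that reversed had passed as reported. With library totals, the difference of genotype effects from HFCFD2W to HFCFD8W+T10D became 0.15 for *Clec4f* (0.01 by upper quartile scaling), 0.11 for *Vsig4* and 0.05 for *Folr2*; from HFCFD8W+T10D to HFCFD12W+T10W it became 0.05 for *Folr2*; and from HFCFD2W to HFCFD12W+T10W it became 0.03 for *Clec4f* and 0.10 for *Folr2*. With 1 mouse left out, the genotype value of *Timd4* ran from -0.04 to 0.26 in HFCFD2W and from -0.07 to 0.45 in HFCFD8W+T10D, and that of *Clec4f* from -0.07 to 0.21 in HFCFD12W+T10W. Differences of effects ran from -0.14 to 0.08 (*Clec4f*), -0.19 to 0.33 (*Timd4*), -0.18 to 0.06 (*Vsig4*) and -0.3 to 0.01 (*Folr2*) from HFCFD2W to HFCFD8W+T10D. They ran from -0.37 to 0.06 (*Folr2*) and -0.12 to 0.21 (*Csf1r*) from HFCFD8W+T10D to HFCFD12W+T10W, and from -0.05 to 0.26 (*Vsig4*) and -0.11 to 0.28 (*Cd5l*) from HFCFD2W to HFCFD12W+T10W. *Timd4* ran from -0.29 to 0.22 between the floxed livers of HFCFD8W+T10D and HFCFD12W+T10W.

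Replicate numbers did not pair the mice: same-number correlations ran from -0.209 to 0.051, -0.085 to 0.116 and -0.089 to 0.116. With the number as a block, members higher in HFCFD2W were 2, with *Cd5l* gained (0.48, adjusted p = 0.0433) and *Folr2* (0.53, 0.137) and *Csf1r* (0.39, 0.0684) not passing, and in HFCFD8W+T10D *Cd5l* passed (0.75, 0.00927) and *Marco* did not (1.59, 0.0507); the block moved no call in HFCFD12W+T10W. *Marco* in HFCFD8W+T10D also missed the threshold in the robust edgeR fit (2.18, adjusted p = 0.0723) and in limma (1.59, 0.0572).

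With the 3 C1q genes as the denominator of the macrophage ratios, the log2 difference of knockout and floxed livers moved in 8 cases, to -0.03 (*Clec4f*), -0.06 (*Vsig4*), -0.06 (*Cd5l*), -0.09 (*Adgre1*) and -0.07 (*Csf1r*) in HFCFD2W and to -0.99 (*Clec4f*), -0.52 (*Vsig4*) and -0.33 (*Csf1r*) in HFCFD12W+T10W.

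Scaling moved the split of all calls. The share called higher in HFCFD8W+T10D was 60% and 84.1% with library totals, and in HFCFD12W+T10W 53.5% and 88%. For the differences of genotype effects it was 39.6%, 52.6% by upper quartile and 77% by totals from HFCFD2W to HFCFD8W+T10D; 47.5%, 66.5% and 83.4% from HFCFD8W+T10D to HFCFD12W+T10W; and 43.6%, 61.6% and 87% from HFCFD2W to HFCFD12W+T10W. For floxed livers it was 50.8% and 76.2% with totals from HFCFD2W to HFCFD8W+T10D, 50.5% and 83.2% from HFCFD2W to HFCFD12W+T10W, and 55.2%, 45% by upper quartile and 67.9% by totals from HFCFD8W+T10D to HFCFD12W+T10W.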
